A study of Homo sapiens with 4 samples.

Results

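Extracellular matrix and stromal genes are described here in LCC9 cells, a breast cancer line derived from MCF-7 that grows in the presence of tamoxifen and whose estrogen receptor alpha is wild type per the labels. The set holds 43 genes of 23605 symbols, taken by symbol from a list of collagens, proteoglycans, glycoproteins, laminins, remodelling enzymes and mesenchymal cell genes. The list was drawn up with the values of these libraries in view, so the values below describe its members and test nothing about them. The cells received the compound A7, described in the labels as mimicking the tumour suppressor BRCA1, or DMSO as vehicle, for 24 h. Both groups grew in phenol red-free medium whose serum was charcoal-stripped, which lowers its estrogen. There were 2 A7 libraries and 2 vehicle libraries. The dose of A7 is not given in the sources used here, and the sample titles and the series title disagree on its catalogue number, which is why the code name alone is printed. Whether the libraries of 1 group stem from different cultures is not stated, and the p-values therefore cover only the spread between these libraries, which may be technical. All values are FPKM, the fragments of a gene relative to transcript length and to all fragments mapped in that library, divided by 1 scaling factor per library and called scaled FPKM.

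The extracellular matrix is the network of secreted proteins that surrounds cells. In the breast, fibroblasts of the stroma secrete most of its fibrillar collagens and of the small proteoglycans that bind them, while epithelial cells add laminins and other parts of the basement membrane they rest on. Luminal breast cancer cells in culture keep an epithelial pattern of genes, and transcripts such as decorin and lumican are used as markers of fibroblasts. The question put to the list was whether such stromal transcripts stood in A7 replicate 1 alone or in both A7 libraries.

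The libraries differed in depth. Relative to vehicle replicate 1, the depth read from the FPKM worth of 1 fragment was 1.85 in A7 replicate 1, 1.41 in A7 replicate 2 and 0.975 in vehicle replicate 2. Symbols above 0 numbered 14906 and 13878 in the A7 libraries, against 13434 and 13346 in the vehicle libraries. The markers of the labelled cell type were present. Each of the 9 luminal epithelial markers was above 0 in every library, and their summed level was 1024 and 779 scaled FPKM with A7, against 1155 and 917 with vehicle. Of 5 basal markers, the keratins KRT5, KRT14 and KRT17 were listed at 0 in all 4 libraries. The other 2, TP63 and OXTR, were both above 0 in each A7 library, and 1 of them was in each vehicle library. TP63 reached 1 scaled FPKM in vehicle replicate 2 alone.

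Most members were at low levels in these cells. Of the 43, 28 were under 1 scaled FPKM in every library, and 5 were listed at 0 throughout, namely COL4A2, FMOD, POSTN, HSPG2 and PDGFRB. Another 21 were above 0 in all 4 libraries. Members above 0 numbered 37 in A7 replicate 1 and 27 in A7 replicate 2, against 26 and 22 in the vehicle libraries. Their summed level was 200.1 and 159 scaled FPKM with A7, against 175 and 183 with vehicle. TIMP1, THBS1 and SDC4 held most of that sum in each library.

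**Figure D1:**
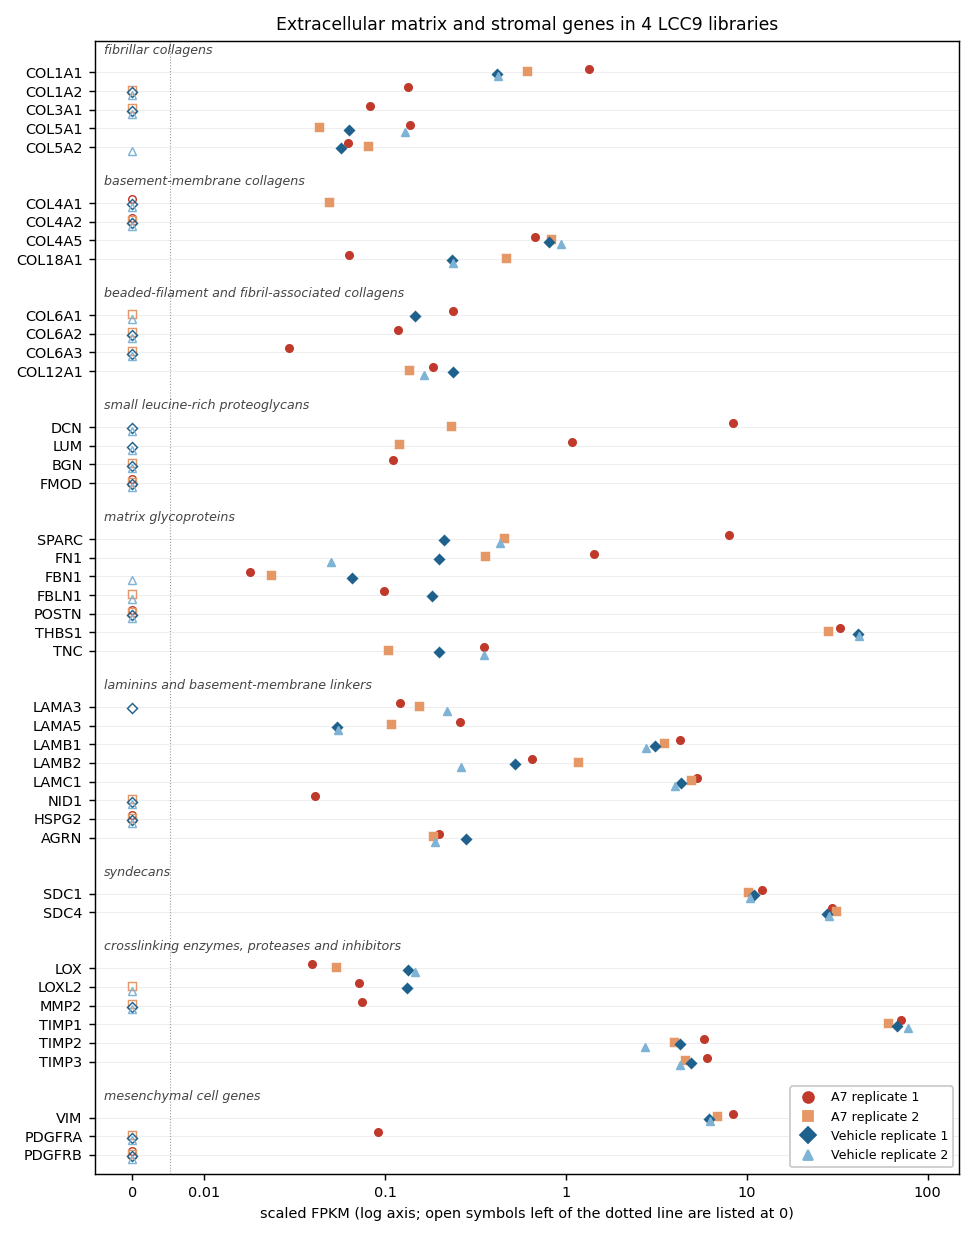
Scaled FPKM (x axis, log scale) of the 43 members (y axis, grouped by role) in each of the 4 libraries, 1 symbol per library, with open symbols at the left edge for values listed at 0. DCN, SPARC and LUM stand out in A7 replicate 1 at 8.40, 7.98 and 1.08, while the symbols of the syndecans, laminin chains LAMB1 and LAMC1, and the TIMP genes lie close together.

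Decorin gave the widest gap within the A7 group. DCN encodes decorin, a small leucine-rich proteoglycan that binds collagen fibrils and growth factors. It was listed at 8.40 scaled FPKM in A7 replicate 1 and 0.230 in A7 replicate 2, against 0 in both vehicle libraries. The 2 A7 libraries therefore differed by 36.5-fold, while the groups did not overlap. Reading the smallest value as 1 fragment, the lowest fragment numbers that fit these values were 47 and 1 with A7. The ratio of A7 replicate 1 to A7 replicate 2 per unit of depth then had a 95% interval of 6.10 to 1439 (exact binomial). This interval and those given for other members cover counting error between 2 libraries only, and they describe values that were in view when the list was drawn up.

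Lumican, encoded by LUM and a relative of decorin that spaces collagen fibrils in connective tissue, had the same order of libraries. It was at 1.08 scaled FPKM in A7 replicate 1 and 0.120 in A7 replicate 2, against 0 in both vehicle libraries. These values correspond to at least 12 fragments and 1 fragment with A7, and the interval of their ratio per depth was 1.35 to 389. Of the other members of this family, BGN (biglycan) was at 0.111 in A7 replicate 1 and at 0 elsewhere, and FMOD (fibromodulin) was listed at 0 in all 4. Decorin and lumican were thus listed in both A7 libraries and in neither vehicle library, and the value in A7 replicate 2 rested on as little as 1 fragment for each gene.

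Osteonectin, the collagen-binding glycoprotein encoded by SPARC, was at 7.98 scaled FPKM in A7 replicate 1 and 0.456 in A7 replicate 2, against 0.213 and 0.431 in the vehicle libraries. A7 replicate 2 lay beside the vehicle libraries, and A7 replicate 1 was 17.5-fold above A7 replicate 2. Lowest fragment numbers were 69 and 3 with A7, against 1 and 2 with vehicle, and the 95% interval of the ratio between the A7 libraries was 5.73 to 86.8. For A7 replicate 2 against the summed vehicle libraries the interval was 0.188 to 10.5.

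Fibronectin, the adhesive glycoprotein encoded by FN1 that links integrins to collagen, was at 1.43 and 0.359 scaled FPKM in the A7 libraries, against 0.199 and 0.0504 in the vehicle libraries. All 4 libraries were apart here: A7 replicate 1 was 3.98-fold above A7 replicate 2, and the vehicle libraries differed by 3.95-fold. Lowest fragment numbers were 53 and 10 with A7, against 4 and 1 with vehicle. The interval of the ratio between the A7 libraries was 2.03 to 8.87, and that of A7 replicate 2 against vehicle was 0.874 to 10.5.

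Thrombospondin-1, encoded by THBS1, binds matrix and cell receptors and inhibits vessel growth, and it was the most abundant of the members grouped as matrix glycoproteins. It was at 32.8 and 28.1 scaled FPKM in the A7 libraries, against 41.1 and 41.9 in the vehicle libraries. Both A7 values were below both vehicle values, with means of 30.5 ± 3.35 with A7 and 41.5 ± 0.574 with vehicle (SD, n = 2 each) and a ratio of 0.735. The log2 difference was -0.44 (SE 0.15), and it was -0.55 without A7 replicate 1. With FPKM rescaled to TPM it was -0.22, a setting that moved the median of all genes up by 0.17.

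The other matrix glycoproteins were low. TNC (tenascin-C) lay between 0.103 and 0.352 with A7 and between 0.199 and 0.351 with vehicle, and the groups overlapped. FBN1 (fibrillin-1, a microfibril protein) was above 0 in 3 libraries with 0.0654 as its highest value, and FBLN1 (fibulin-1) in 2 libraries, at 0.0985 in A7 replicate 1 and 0.182 in vehicle replicate 1. POSTN (periostin), a protein of fibroblast-rich stroma, was listed at 0 in all 4.

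The 150 bases before the start site are printed for SPARC and FN1, as members with a higher value in A7 replicate 1 than in A7 replicate 2, and for LAMB1 and THBS1, as members at similar levels in both A7 libraries. They come from RefSeq (GRCh38.p14), at chr5:151686916-151687065 (minus strand) for SPARC, chr2:215436069-215436218 (minus) for FN1, chr7:108003162-108003311 (minus) for LAMB1 and chr15:39580929-39581078 (plus) for THBS1. Each is given 5′ to 3′ on the gene's strand, and capitals mark GGGCGG or its reverse complement CCGCCC, overlapping matches included.
SPARC: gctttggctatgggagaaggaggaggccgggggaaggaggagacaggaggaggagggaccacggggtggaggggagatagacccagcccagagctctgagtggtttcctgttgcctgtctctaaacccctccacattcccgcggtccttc
FN1: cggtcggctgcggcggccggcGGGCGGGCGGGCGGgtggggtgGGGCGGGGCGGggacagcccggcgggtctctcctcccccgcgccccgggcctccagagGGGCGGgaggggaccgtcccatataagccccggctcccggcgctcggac
LAMB1: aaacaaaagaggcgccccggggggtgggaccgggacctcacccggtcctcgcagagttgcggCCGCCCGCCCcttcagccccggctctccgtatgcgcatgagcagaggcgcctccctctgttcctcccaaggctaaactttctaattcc
THBS1: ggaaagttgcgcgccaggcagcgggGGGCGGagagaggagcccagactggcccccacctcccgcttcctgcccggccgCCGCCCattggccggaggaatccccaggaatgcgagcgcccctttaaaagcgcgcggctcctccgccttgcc

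The SPARC stretch held no GGGCGG, the FN1 stretch held 6, and the LAMB1 and THBS1 stretches held 2 each. GC content was 62.0% for SPARC, 83.3% for FN1, 65.3% for LAMB1 and 72.0% for THBS1, against a median of 59.3% over 27305 promoters of the same length. Promoters of 32 of the 43 members were matched, and those of DCN, LUM and COL1A1 were not among them. GGGCGG, the core letters of the GC box, was on either strand in 20 of these 32 and in 36.7% of all promoters. TATAAA, searched on both strands, was in 2 of the 32 (COL6A2 and POSTN) and in 7.0% of all. TGANTCA, the letters of the AP-1 element, was on either strand in 2 (LAMA3 and PDGFRA) and in 4.1% of all, and GGTCA, 1 arm of the estrogen response element, in 2 (COL6A2 and COL6A3) and in 21.8% of all. None of the 4 motifs was in the SPARC stretch. A match describes letters only.

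Fibrillar collagens, which form the load-bearing fibres of connective tissue, were near the lower end of detection. COL1A1, the alpha-1 chain of type I collagen, was at 1.34 and 0.613 scaled FPKM in the A7 libraries, against 0.416 and 0.421 in the vehicle libraries. The groups did not overlap, and the means were 0.975 ± 0.512 with A7 and 0.418 ± 0.00344 with vehicle (SD, n = 2 each). Lowest fragment numbers were 6 and 2 with A7, against 1 and 1 with vehicle, and the interval of the ratio between the A7 libraries was 0.407 to 23.1.

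Its partner chain COL1A2 was at 0.134 in A7 replicate 1 and at 0 in the other 3 libraries, and COL3A1, the type III chain that is laid down with it in loose connective tissue, was at 0.0825 there and at 0 elsewhere. COL5A1 and COL5A2, the type V chains that start fibril assembly, were under 0.14 in every library. COL5A1 was above 0 in all 4 and highest in A7 replicate 1 (0.138) and vehicle replicate 2 (0.128), and COL5A2 was above 0 in both A7 libraries (0.0622 and 0.0808) and in vehicle replicate 1 (0.0568).

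Collagens of the basement membrane were not highest in A7 replicate 1, while the type VI chains were. COL4A5 was between 0.677 and 0.824 with A7 and between 0.804 and 0.939 with vehicle. COL18A1, whose tail yields endostatin, was at 0.0634 in A7 replicate 1 and 0.468 in A7 replicate 2, against 0.236 and 0.238 with vehicle, so A7 replicate 1 was the lowest library here. COL4A1 was above 0 in A7 replicate 2 alone (0.0492), and COL4A2 in none. Of the type VI chains, which form the beaded filaments around fibroblasts, COL6A1 was at 0.237 in A7 replicate 1 and 0.146 in vehicle replicate 1, while COL6A2 (0.118) and COL6A3 (0.0295) were above 0 in A7 replicate 1 alone. COL12A1, a fibril-associated collagen, lay between 0.136 and 0.183 with A7 and between 0.165 and 0.239 with vehicle.

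Laminins are the cross-shaped trimers that epithelial cells lay into the basement membrane, and 2 of their chains were among the better-detected members. LAMB1 was at 4.28 and 3.47 scaled FPKM in the A7 libraries, against 3.10 and 2.77 in the vehicle libraries. LAMC1, the gamma chain of most laminins, was at 5.28 and 4.94 with A7, against 4.34 and 4.04 with vehicle. For both genes each A7 value was above each vehicle value, with log2 differences of 0.31 (SE 0.19) for LAMB1 and 0.24 (SE 0.17) for LAMC1. Both kept a positive difference under each of the 12 alternatives run, from 0.19 to 0.45 for LAMB1 and from 0.19 to 0.40 for LAMC1. Some of these, namely the looser filters, the fit without a variance trend and the replicate block, cannot change a gene's difference.

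Of the other chains, LAMB2 was at 0.652 and 1.17 with A7, against 0.520 and 0.264 with vehicle, with no overlap and with A7 replicate 2 the highest. LAMA5, the alpha chain of mature epithelial basement membranes, was at 0.260 and 0.107 with A7, against 0.0543 and 0.0549 with vehicle, also with no overlap. LAMA3, an alpha chain of epithelial anchoring laminins, was at 0.121 and 0.154 with A7, against 0 and 0.221 with vehicle, and the groups overlapped. Lowest fragment numbers were 9 and 3 with A7 against 1 and 1 with vehicle for LAMA5, and 5 and 6 with A7 against 2 and 1 with vehicle for LAMB2. Of the linkers that tie laminin to the rest of the membrane, AGRN (agrin) lay between 0.184 and 0.279 over the 4 libraries, NID1 (nidogen-1) was above 0 in A7 replicate 1 alone (0.0412), and HSPG2 (perlecan) was listed at 0 throughout.

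Syndecans, the transmembrane heparan sulfate proteoglycans that epithelial cells use to hold matrix and growth factors, were at similar levels in the 4 libraries. SDC1 was at 12.1 and 10.2 scaled FPKM in the A7 libraries, against 10.9 and 10.4 in the vehicle libraries. SDC4, a part of focal adhesions, was at 29.6 and 31.3 with A7, against 27.8 and 28.7 with vehicle. SDC1 overlapped between the groups, with a log2 difference of 0.05 (SE 0.16) that was -0.06 without A7 replicate 1. SDC4 did not overlap, with a log2 difference of 0.11 (SE 0.14) and a ratio of means of 1.08.

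Among the members that remodel matrix or inhibit its remodelling, the TIMP inhibitors were better detected and the enzymes LOX, LOXL2 and MMP2 were scarce. TIMP1, an inhibitor of matrix metalloproteinases, had the highest level of the set, 71.7 and 60.3 scaled FPKM with A7, against 68.2 and 77.9 with vehicle. TIMP2 was at 5.82 and 3.96 with A7, against 4.27 and 2.73 with vehicle. TIMP3, the inhibitor that stays bound to matrix, was at 6.05 and 4.56 with A7, against 4.91 and 4.28 with vehicle. The groups overlapped for all 3 inhibitors. Their log2 differences were -0.15 (SE 0.15) for TIMP1, 0.39 (SE 0.26) for TIMP2 and 0.16 (SE 0.20) for TIMP3, and that of TIMP1 became 0.08 with FPKM rescaled to TPM.

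LOX, the oxidase that crosslinks collagen and elastin, was at 0.0393 and 0.0535 scaled FPKM with A7, against 0.133 and 0.146 with vehicle. Both A7 values were below both vehicle values, on lowest fragment numbers of 1 and 1 with A7, against 2 and 2 with vehicle. Its relative LOXL2 was above 0 in A7 replicate 1 (0.0719) and vehicle replicate 1 (0.133). MMP2, a gelatinase made mainly by fibroblasts, was above 0 in A7 replicate 1 alone, at 0.0748.

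Vimentin, the intermediate filament protein of mesenchymal cells encoded by VIM, was at 8.38 and 6.83 scaled FPKM in the A7 libraries, against 6.18 and 6.24 in the vehicle libraries. The groups did not overlap, and the log2 difference was 0.25 (SE 0.18) with all libraries and 0.12 without A7 replicate 1. The receptors for platelet-derived growth factor that mark fibroblasts and mural cells were almost undetected. PDGFRA was at 0.0915 in A7 replicate 1 and at 0 elsewhere, and PDGFRB was listed at 0 in all 4 libraries.

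**Figure D2:**
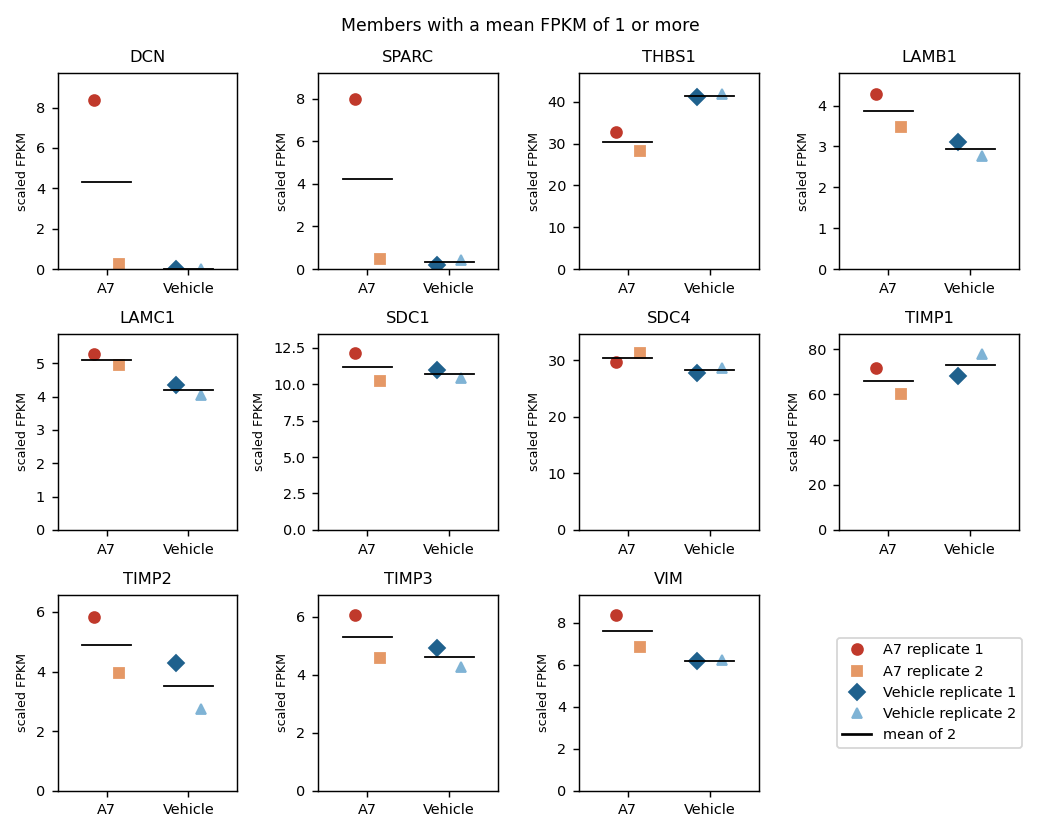
Scaled FPKM (y axis, linear and starting at 0) of the 11 members with a mean FPKM of 1 or more in A7 and vehicle libraries (x axis), 1 symbol per library and a line at the mean of 2. In DCN and SPARC the A7 mean lies between 1 high and 1 low library, at 8.40 and 0.230 and at 7.98 and 0.456, whereas in THBS1 both A7 libraries lie below both vehicle libraries.

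Between A7 and vehicle, 11 of the 43 members had a mean FPKM of 1 or more and entered the limma fit over 8952 genes. DCN and SPARC entered only through A7 replicate 1. At a Benjamini-Hochberg adjusted p under 0.05 limma called 0 of the 11 in either direction, beside 1 gene higher and 1 gene lower of the 8952 (0.0112% each). At an unadjusted limma p under 0.05, 0 of the 11 were higher, where 2.21% of all genes were, and 1 was lower (THBS1), where 3.55% were. The adjusted p of the 11 lay between 0.806 and 0.963. An exact permutation test of 2 against 2 libraries cannot give a p below 0.333. Groups did not overlap for 6 of the 11 with A7 higher, beside 18.3% of all genes, and for 1 with A7 lower, beside 18.6%. Since the list was drawn up from this contrast, nothing is read from these counts.

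The fitted differences of DCN and SPARC turned on A7 replicate 1. DCN had a log2 difference of 1.77 (SE 0.88) over all libraries, 0.30 without A7 replicate 1 and 3.23 without A7 replicate 2. SPARC had 1.46 (SE 0.80), and 0.14 and 2.77 in these 2 fits. These are differences of log2(scaled FPKM + 1), which understate the change of low genes.

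Over the 11 fitted members the median log2 difference was 0.24, with 9 means higher and 2 lower with A7, beside a median of -0.0019 over all 8952 genes. Leaving out DCN and SPARC, it was 0.17 over 9 members. Without A7 replicate 1 it was 0.14, with 7 means higher and 4 lower. Taken library by library, the median deviation of the 11 members from their own means was 0.25 in A7 replicate 1 and -0.09 in A7 replicate 2, against -0.08 and -0.16 in the vehicle libraries. The spread within groups was 0.18 (pooled SD). These deviations include the values of DCN and SPARC that let both genes into the fit, and nothing is read from them.

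In the library-by-library reading, 8 members were above 0 in A7 replicate 1 and listed at 0 in the other 3 libraries. They were COL1A2, COL3A1, COL6A2, COL6A3, BGN, NID1, MMP2 and PDGFRA, which make up 18.6% of the 43 members, beside 3.96% of all symbols. A7 replicate 2 alone held 1 member (2.33%), beside 1.6% of all symbols. The vehicle libraries alone held 0 members each, beside 1.22% and 1.32% of all symbols. Another 2 members, DCN and LUM, were above 0 in both A7 libraries and at 0 in both vehicle libraries. The share of all symbols with this pattern was not counted, so nothing is read from that number. Other matrix genes had the pattern too, PRELP, OGN and COL16A1 among them. The reverse was seen for GPC1, which neither A7 library held, while the vehicle libraries held it at 0.164 and 0.166 scaled FPKM. Each A7 library was deeper than each vehicle library, and what depth adds to this pattern was not tested.

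A7 replicate 1 was the deepest library, and the number of symbols above 0 followed the order of depth over the 4 libraries. Of the symbols at 0 in the other 3 libraries, 11.3% were above 0 in A7 replicate 1, 4.9% in A7 replicate 2, 3.78% in vehicle replicate 1 and 4.08% in vehicle replicate 2. Of the members at 0 in the other 3 libraries, 8 of 13 (61.5%) were above 0 in A7 replicate 1 and 1 of 6 (16.7%) in A7 replicate 2, against 0 of 5 in each vehicle library. The part of depth in these counts was not tested.

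**Figure D3:**
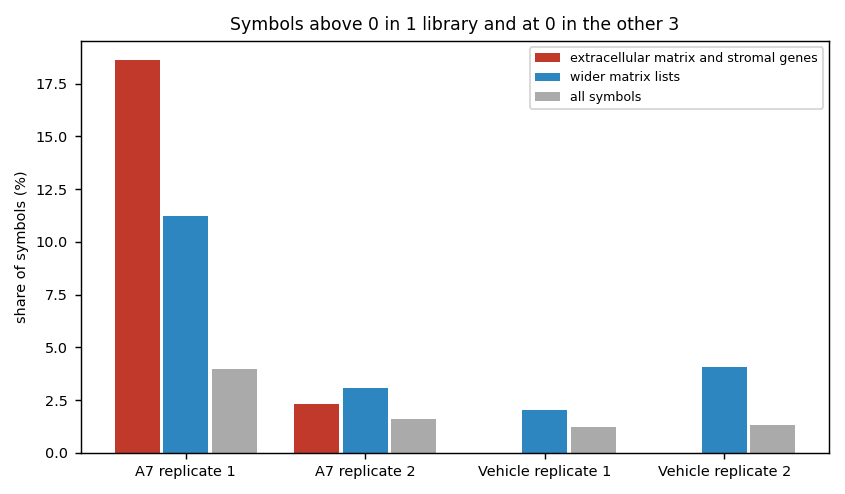
Share of symbols (y axis, percent) above 0 in 1 library and at 0 in the other 3, for each library (x axis), with bars for the 43 members, 197 other matrix genes and all 23605 symbols. The share of members is 18.6% in A7 replicate 1, 2.33% in A7 replicate 2 and 0 in both vehicle libraries, while that of all symbols lies between 1.22% and 3.96%.

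The number of members in A7 replicate 1 alone depended on the level asked for. At 0.1 scaled FPKM or more there were 3 (COL1A2, COL6A2 and BGN; 6.98%), beside 2.94% of all symbols, and vehicle replicate 1 alone held 2 at this level (FBLN1 and LOXL2), beside 1.5%. At 0.01 or more there were the 8 named above, beside 4.04% of all symbols, and 1, 0 and 0 members in A7 replicate 2 and the vehicle libraries, beside 1.64%, 1.23% and 1.38%. At 1 or more there were 5 (COL1A1, DCN, LUM, SPARC and FN1; 11.6%), beside 1.21% of all symbols. A7 replicate 2 alone held 1 at this level, LAMB2, beside 0.758%, and the vehicle libraries held 0 each, beside 0.868% and 0.894%. DCN, LUM and SPARC were at 0.5 or more and at least 4-fold above each other library in A7 replicate 1, beside 0.559% of all symbols. This last rule was set after the values were seen. No member met it in the other libraries, where 0.246% of all symbols did in A7 replicate 2, against 0.309% and 0.398% in the vehicle libraries.

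**Figure D4:**
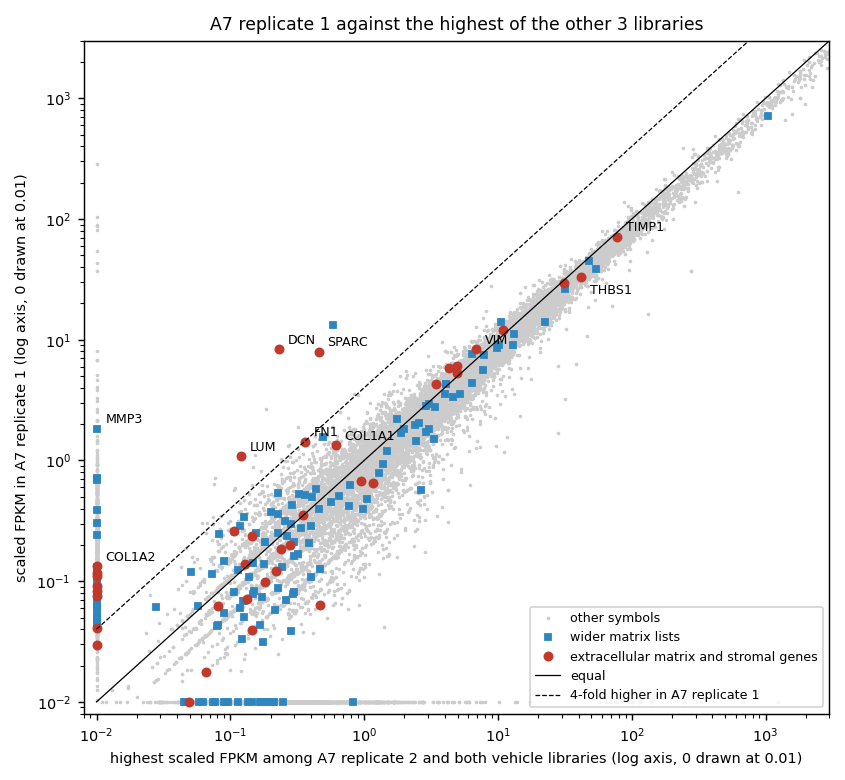
Scaled FPKM in A7 replicate 1 (y axis, log scale) against the highest value among the other 3 libraries (x axis, log scale), with 0 drawn at 0.01, for members (red), other matrix genes (blue) and all other symbols (grey). Of the members above 0 in another library, DCN, SPARC and LUM lie above the dashed line of a 4-fold difference, and most better-detected members lie near the line of equal values.

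Fibroblast markers above 0 were most numerous in A7 replicate 1. Of 18, 9 of which are also members, 12 were above 0 in A7 replicate 1 and 6 in A7 replicate 2, against 4 in each vehicle library. The members COL1A1, COL1A2, COL3A1, DCN, LUM, FBLN1 and PDGFRA, listed with these values in view, were among the 12. Outside the members, ACTA2 and CXCL12 were above 0 in every library and TAGLN in all but vehicle replicate 1. DPT and FAP were above 0 in A7 replicate 1 alone. Nothing is read from the counts over the 18. Of all symbols, 63.1% and 58.8% were above 0 in the A7 libraries, against 56.9% and 56.5% in the vehicle libraries. The summed level of the 18 markers was 32.2 and 20.4 scaled FPKM with A7, against 25.3 and 23.8 with vehicle. ACTA2 and CXCL12 made up most of it, the first at 11.1 and 11.3 with A7, against 13.7 and 14.6 with vehicle, and the second at 8.27 and 7.76 with A7, against 11.1 and 7.81 with vehicle. TAGLN (transgelin) was at 0.539 and 0.336 with A7, against 0 and 1.01 with vehicle, highest in vehicle replicate 2. DPT (dermatopontin), a fibroblast marker outside the member list, was at 0.995 in A7 replicate 1 and at 0 elsewhere. FAP was at 0.0713 in A7 replicate 1 and at 0 elsewhere. PDGFRB, POSTN, THY1, PDPN, C7 and PI16 were listed at 0 in all 4 libraries. In RNA from whole wells, more cells of a type and more RNA per cell cannot be told apart, and the part of other cells or other RNA in these values was not tested.

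The summed markers of other cell types were highest in other libraries, except those of leukocytes. The 6 mural markers summed to 2.61 and 3.14 scaled FPKM with A7, against 2.26 and 2.40 with vehicle, with NOTCH3 at 1.52 and 1.21 with A7 and 0.833 and 1.20 with vehicle, and with CNN1 and DES at 0. The 7 endothelial markers summed to 0.0292 and 0.246 with A7, against 0.0951 and 0.0961 with vehicle, with CDH5, KDR, TEK and CLDN5 at 0. The 10 leukocyte markers summed to 5.39 and 4.63 with A7, against 5.23 and 4.72 with vehicle. Most of that was CD68, at 3.47 and 4.15 with A7 and 4.11 and 4.15 with vehicle, while CD3D was at 0.538 in A7 replicate 1 and at 0 elsewhere, and PTPRC, which all leukocytes carry, was listed at 0, as were CD3E, MS4A1, CD14 and FCGR3A.

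Erythroid markers summed to 4.21 and 7.30 with A7, against 6.26 and 6.39 with vehicle. All of it came from the near-identical globin genes HBA1 (2.56 and 4.24 with A7, 3.19 and 3.26 with vehicle) and HBA2 (1.64 and 3.06 with A7, 3.07 and 3.13 with vehicle), between which reads may be shared, and HBB and ALAS2 were at 0. The 5 adipocyte markers summed to at most 0.0849 in any library, with FABP4, PLIN1 and LPL at 0. The 5 basal markers summed to 0.997 and 0.865 with A7, against 0.547 and 1.46 with vehicle.

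Luminal markers were lower in A7 replicate 2 than in A7 replicate 1 for the keratins, which have processed copies that may share reads. KRT8 was at 82.3 and 54.5 with A7, against 104.8 and 73.4 with vehicle. KRT18 was at 239.6 and 172 with A7, against 315 and 236 with vehicle, and KRT19 at 347 and 236 with A7, against 429 and 327 with vehicle. Among epithelial adhesion genes, EPCAM was at 70.5 and 62.4 with A7, against 74.0 and 59.7 with vehicle, and CDH1 (E-cadherin) at 69.0 and 70.1 with A7, against 65.6 and 66.8 with vehicle. CLDN4 (claudin-4) was at 7.22 and 7.31 with A7, against 4.91 and 2.99 with vehicle. The estrogen receptor gene ESR1 was at 5.36 and 5.20 with A7, against 4.28 and 4.79 with vehicle. Its pioneer factor FOXA1 was at 24.6 and 20.8 with A7, against 18.9 and 14.6 with vehicle, and GATA3 at 178 and 151 with A7, against 139 and 132 with vehicle.

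A wider set of 197 other matrix genes in 8 lists was taken by function, with earlier results of these libraries known. Of these, 22 (11.2%) were above 0 in A7 replicate 1 alone, beside 3.96% of all symbols, and 6 (3.05%) in A7 replicate 2 alone, against 4 (2.03%) and 8 (4.06%) in the vehicle libraries alone. The 22 included MMP3 (stromelysin-1) at 1.83 scaled FPKM, SERPINE2 (protease nexin-1) at 0.722, LOXL1 (a relative of LOX that acts on elastin) at 0.702 and MFAP4 (a microfibril protein) at 0.685. These 4 were among 5 wider genes (2.54%) at 0.5 or more and at least 4-fold above each other library, beside 0.559% of all symbols. OGN (osteoglycin), a proteoglycan of the family of decorin, was at 0.245 and 0.0828 with A7, against 0 in both vehicle libraries, the order of DCN and LUM. Its lowest fragment numbers were 4 and 1 with A7, and the interval of their ratio per depth was 0.301 to 150. In the same list PRELP had this order at lower values, and EPYC was above 0 in A7 replicate 1 alone. OMD went the other way, at 0.0682 and 0 with A7, against 0.123 and 0.125 with vehicle, and ASPN and KERA were listed at 0 throughout.

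Of the 197 wider genes, 34 had a mean FPKM of 1 or more, and limma called 0 of them. At an unadjusted limma p under 0.05, 0 were higher and 3 lower (8.82%), beside 2.21% and 3.55% of all genes. Of these 3, MFAP2 entered the fit only through its vehicle values, so nothing is read from this count. The means of the 34 were higher for 20 and lower for 14, with a median log2 difference of 0.08. The groups did not overlap for 8 with A7 higher and 8 with A7 lower (23.5% each), beside 18.3% and 18.6% of all genes.

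The 3 genes with an unadjusted p under 0.05 were MGP, MFAP2 and PPIB. MGP, the matrix Gla protein that keeps matrix from calcifying, was at 38.6 and 36.9 scaled FPKM with A7, against 48.9 and 54.3 with vehicle (log2 difference -0.44, SE 0.14, limma adjusted p = 0.806). PPIB, the cyclophilin of the collagen-folding complex, was at 708 and 799 with A7, against 985 and 1051 with vehicle (-0.44, SE 0.12, limma adjusted p = 0.806). MFAP2, a microfibril protein, was at 0.571 and 0 with A7, against 1.05 and 2.67 with vehicle, with the 2 vehicle values far apart. In each of the 3, both A7 values were below both vehicle values, and none passed the adjustment.

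Genes of collagen processing had no common direction, with 5 means higher and 5 lower of 10 fitted. P4HA1, a prolyl hydroxylase of collagen, was at 9.05 and 13.1 with A7, against 7.31 and 7.91 with vehicle, and SERPINH1, the collagen chaperone HSP47, at 1.72 and 2.15 with A7, against 2.91 and 2.41 with vehicle. Of 5 fitted proteases and inhibitors, ADAM17 was at 11.2 and 13.2 with A7, against 9.43 and 9.69 with vehicle, and its relative ADAM10 at 2.78 and 2.36 with A7, against 3.33 and 3.39 with vehicle. Limma adjusted p was 0.806 for P4HA1, ADAM17 and ADAM10 and 0.807 for SERPINH1.

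Receptors that bind the matrix also went both ways, with 5 means higher and 2 lower of 7 fitted. ITGB1, the common beta-1 integrin chain, was at 44.7 and 48.2 scaled FPKM with A7, against 41.5 and 37.7 with vehicle. ITGA2, its alpha partner in a collagen receptor, was at 2.03 and 1.52 with A7, against 2.56 and 2.47 with vehicle. DDR1, a collagen-binding receptor kinase, was at 14.1 and 9.62 with A7, against 10.5 and 8.05 with vehicle. DAG1, which encodes the laminin receptor dystroglycan, was at 2.22 and 1.76 with A7, against 1.09 and 1.57 with vehicle. Limma adjusted p was 0.806 for ITGB1, ITGA2 and DAG1 and 0.834 for DDR1.

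Of the remaining lists, CYR61, a secreted matrix-associated protein, was at 1.51 and 3.31 with A7, against 0.847 and 1.29 with vehicle (limma adjusted p = 0.806). The glypican GPC3 was at 1.81 and 1.16 with A7, against 3.07 and 2.27 with vehicle (limma adjusted p = 0.806), GPC4 at 1.67 and 1.89 with A7, against 1.36 and 1.70 with vehicle (limma adjusted p = 0.919), and the syndecan SDC2 at 1.45 and 1.70 with A7, against 1.10 and 2.46 with vehicle (limma adjusted p = 0.978). None of 29 other collagens and none of 9 genes of mesenchymal transition, most of them transcription factors, had a mean FPKM of 1 or more. Among these 9, TWIST1 was at 0.241 in A7 replicate 1 and at 0 elsewhere, while ZEB2 was above 0 in vehicle replicate 2 alone. At 0.1 or more, TWIST1 and CDH2 stood in A7 replicate 1 alone and ZEB1 in vehicle replicate 2 alone.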

How the data were processed

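Total RNA was copied into cDNA (SMARTer PCR kit), sheared and adapter-ligated, per the labels' protocols, and none of the named steps keeps the strand. The authors deposited FPKM per gene symbol, 1 table per library (23619 lines, 2 empty columns in 1 table), per the file headers. CASAVA 1.8.2, TopHat, Cufflinks 2.2.1 and GRCh37 are listed by the submitters' processing notes without their roles; neither the annotation nor the handling of shared reads is given in the sources used here. On 14 lines the symbol was a number, as a spreadsheet writes a date, and these lines, holding 0.00539% of the summed FPKM or less, were left out.

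No count model was used, since FPKM are normalized. Scaling factors between libraries were median ratios to the gene-wise geometric mean ( 0.990 and 1.02 for A7, 1.00 and 1.01 for vehicle). The 8952 genes whose mean FPKM reached 1 entered limma 3.58.1 (R 4.3.3; eBayes with trend) as log2(scaled FPKM + 1). The difference was A7 minus vehicle, the test two-sided and the adjustment Benjamini-Hochberg over these genes, leaving 2 residual and adding 3.89 prior degrees of freedom. The fit was tested on simulated data with normal noise and known changes, placed only in genes with a mean log2 value above 2. Lower genes, DCN and SPARC among them, were not covered by it. Relative depth came from the FPKM worth of 1 fragment in low genes. Lowest fragment numbers read a gene's smallest value per depth as 1 fragment, which holds only if that reading is right, and intervals are exact binomial at 95% and cover counting error only. PCR copies carry no molecular identifiers. An exact 0 can be a failed estimate and is given as listed at 0.

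The members, the role groups, and the wider and marker lists were chosen with earlier results of these data known. Values per library are given for members whose mean FPKM reached 1, and for those at 0.1 or more somewhere whose groups do not overlap. Of each wider list, up to 3 fitted genes with the smallest p are named, and of each marker list those with a mean of 1 or more. Others named were chosen after their values were seen. A few genes that the rule names are not reported here. The tables hold no positions; promoter positions are those of RefSeq, GRCh38.p14, and matched by symbol. Alternatives are in the closing section.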

Additional observations from a re-analysis of the deposited data

How the results depend on the processing

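Over all 8952 genes limma called 1 higher and 1 lower. It called 0 lower with a pseudocount of 0.1, 0 and 0 without a filter on low values or with a mean FPKM of 0.1 or more, 2 lower with TPM and with quantile normalization, and 0 higher without the variance trend. With a replicate block it called 0 and 0. Same-numbered libraries deviated together with a correlation of 0.091, over 2 pairs. So few pairs cannot show whether same-numbered libraries were cultured or prepared together. Leaving out 1 library gave 1 to 10 higher and 0 to 7 lower: 10 and 0 without the first A7 replicate, 9 and 2 without the second, 1 and 6 without the first vehicle replicate, and 2 and 7 without the second; the lone sample of a group is there assumed to vary like the others. No member and no wider gene was called under any of the 12 alternatives. The members' median of 0.24 became 0.056 without a filter, where 38 members entered, most near 0, and lay between 0.14 and 0.34 without 1 library. With TPM it was 0.40, and that of all genes 0.17. Members at 0.1 or more in A7 replicate 1 alone numbered 3, 8 at 0.01 or more and 5 at 1 or more. Of 324 refitted differences of single genes, 318 kept their sign and 6 changed it. The looser filters, the fit without the variance trend and the replicate block leave a gene's difference as it was. Only the remaining alternatives could change a sign, so the number kept overstates what was tried. SDC1 became -0.06 and TIMP3 -0.0061 without A7 replicate 1, and TIMP1 became 0.075 with TPM. SDC2 (-0.07) became 0.069 with TPM, 0.30 without vehicle replicate 2 and 0.0039 without A7 replicate 1, in a range from -0.43 to 0.30 over the fits without 1 library. The cause was not tested. Depth limits the members under 1 scaled FPKM, where few fragments stand behind a value.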

Other observations

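Outside the lists, other genes also stood out in A7 replicate 1. By the rule of 0.5 scaled FPKM or more and at least 4-fold above each other library, 132 symbols did, of which 106 were listed at 0 in the other 3 libraries. Of the 26 that were above 0 elsewhere, 4 were in the lists described, DCN, SPARC and LUM among them. By their symbols, 11 of the 132 were small RNAs, 10 olfactory receptors and 15 loci without a gene name. The highest value was that of the microRNA gene MIR210, at 286 in A7 replicate 1 and at 0 elsewhere. FPKM is relative to transcript length, so few fragments can give a high value for so short a gene. The genes named next were chosen after their values were seen and do not stand for the 132. C1S, a complement protease made by fibroblasts and liver cells, was at 0.594 and 0.109 with A7, against 0 in both vehicle libraries. CAV1 (caveolin-1), a coat protein of caveolae, was at 1.12 and 0 with A7, against 0.152 and 0 with vehicle. AKR1B1 (aldose reductase) was at 0.594 in A7 replicate 1 and at 0 elsewhere. PSG5, a glycoprotein of the placenta from a family of near-identical genes that can share reads, was at 2.69 and 0.184 with A7, against 0 in both vehicle libraries.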
